A study of Drosophila melanogaster with 36 samples.

Results

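The outermost 100 kb of the assembled arms 2L, 3L, X and 3R of Drosophila melanogaster were described in ovaries with a germline knockdown of a subunit of the Rhino-Deadlock-Cutoff complex or of Piwi, and in control ovaries. The members are the 1 kb bins that end within 100 kb of the start of 2L, 3L and X, and the last 100 bins of 3R, which gives 400 of the 139714 bins of the deposited table (dm3 assembly). The choice used position only. Ovaries came from adult females aged 4 to 6 days in which cutoff, deadlock, rhino or piwi was knocked down in the germline, or which carried a germline knockdown labelled control. The agent and the driver were not given in the sources used here. Whole ovaries also hold somatic cells, so fewer cells of a type and less RNA or protein per cell cannot be told apart in any value below.

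Groups were as follows. Rhino chromatin immunoprecipitation (ChIP) had 1 library for each knockdown of the complex, and an average of 2 libraries for piwi knockdown and the control. H3K9me3, trimethylation of lysine 9 of histone H3 that marks heterochromatin, was given as averages of 2 libraries for rhino knockdown, piwi knockdown and control. Deadlock ChIP was given for deadlock knockdown and control, Cutoff ChIP for cutoff knockdown and control, and RNA polymerase II (Pol II) ChIP and GRO-seq, which measures run-on transcripts of engaged polymerase, for rhino knockdown and control, with 1 library each. Small RNA of 18 to 29 nt had 1 library for each knockdown of the complex and 1 for the control. A further library held small RNA precipitated with Piwi from ovaries with the piwi knockdown, which the labels call somatic. RNA-seq had 1 library for each knockdown of the complex and 2 for the control. The input was an average of 2 libraries whose labels name no knockdown.

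Drosophila chromosome ends carry arrays of telomeric retrotransposons (HeT-A, TART and TAHRE), followed inward by telomere-associated satellite-like repeats and then by the first genes. The subtelomeric repeats are known as germline piRNA clusters, loci whose transcripts are cut into the small RNAs that guide Piwi-family proteins to transposons. At clusters read from both strands, the chromodomain protein Rhino binds H3K9me3 and brings in Deadlock, an adaptor, and Cutoff, a protein related to decapping and transcription termination factors that protects nascent cluster transcripts.

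Of the 400 bins, 326 passed the input filter of at least 25% of the median input and were compared, 92 on 2L, 64 on 3L, 86 on X and 84 on 3R. The 74 other bins had little or no input, and 51 bins had a mappability index of 0. The outermost bin compared began 5 kb from the end of 2L, 35 kb from that of 3L, 2 kb from that of X and 6 kb from that of 3R. Repeats were not annotated bin by bin in the columns used, so bins are described by distance. Of the bins compared, 123 overlapped exons and 32 lay in published piRNA clusters by the authors' columns, 7 on 2L, 21 on X and 4 on 3R. Signal is the deposited value, which behaved as reads scaled to a total for each library and divided by the mappable share of the bin. A constant of 0.1 (0.01 for RNA-seq) was added to it. The scaling totals recovered from these values ran from 3872000 to 20240000 for the single Rhino ChIP libraries. For small RNA they ran from 4190000 to 44000001, and for RNA-seq from 36290000 to 169659996. Reads summed over all bins came to 105% of this total in rhino knockdown Rhino ChIP and 14.6% in the Piwi-bound library. The totals therefore need not be sequencing depths. Comparisons without replicates, or with averages only, had no test, and a bin is called when its log2(value + 1) passed a fold stated with each count. On 3L the libraries differed in how far out any signal reached, which is described before the knockdowns. Counts of lower Rhino and lower H3K9me3 are given with and without that stretch, and further counts without it come in the closing section.

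Rhino was 4-fold or more over input in the outermost bin compared on each arm in control ovaries, reached its highest enrichment at the end of 3R and its highest level at the end of X, and no bin more than 58 kb from an end was bound. With binding set at that fold, 32 of 326 bins (9.82%) were bound, against 3.35% of all kept bins. The bound bins were 4 on 2L, 8 on 3L, 15 on X and 5 on 3R. Of the 32, 28 lay in the authors' own Rhino peaks, which held 37 of the 326 bins. Those peaks belong to the same data set, so the overlap is no separate evidence of binding. Of the 32, 31 also had H3K9me3 at 2-fold or more over input. Bins just inside the threshold were 3L 43001 to 44000 and 42001 to 43000, both at a log2 of 2.08. Bins just outside were 2L 10001 to 11000 at 1.98, 2L 19001 to 20000 at 1.95 and 3R 27881001 to 27882000 at 1.92. With a mappability index of at least 0.5, 20 bound bins were left.

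**Figure D1:**
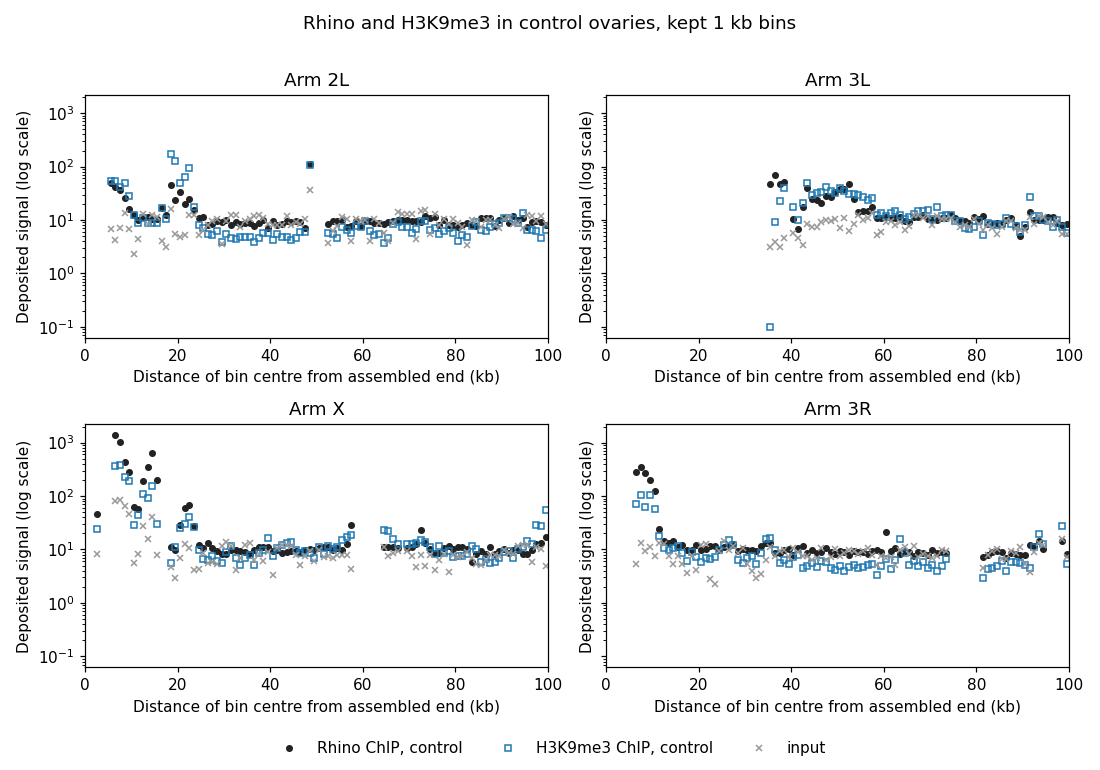
Deposited signal per kept 1 kb bin (log axis) of control Rhino ChIP, control H3K9me3 ChIP and input, against distance from the assembled end of each arm in kb. Each point is a bin, and ChIP values are averages of 2 libraries without spread. Rhino reaches 1362 on X and 348 on 3R, and on 3L the first kept bin starts at 35 kb.

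At the end of 3R the bound bins were contiguous and ended in a bin that overlaps an exon. The 5 bins of 3R 27894001 to 27899000 had 127 to 348 units of control Rhino signal, against 5.40 to 13.1 units of input. Their log2 enrichment was highest, at 5.47, in the outermost bin, 3R 27898001 to 27899000. The innermost of them overlapped an exon and carried 122 units of Pol II in control ovaries, while the 4 outer bins carried 7.33 to 10.6 units. Rhino was 23.9 units in the next bin inward and 14.4 in the one after it, under the threshold in both. Over 10 kb farther in, the bin 27881001 to 27882000 was just under the threshold, at a log2 of 1.92.

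On 2L, 3 bound bins (5001 to 8000) lay in the published cluster and a single bound bin (20001 to 21000) did not. Control Rhino signal was 48.5, 41.1 and 35.9 units in the first 3, against 6.88, 4.18 and 7.10 units of input. It then declined inward, through 25.4 units in 8001 to 9000 and 15.9 units in 9001 to 10000, to 10.1 units in 11001 to 12000. A second stretch of H3K9me3 lay farther in over exon bins, with 174 units in 18001 to 19000, 129 units in 19001 to 20000 and 95.1 units in 22001 to 23000, against 16.4, 5.52 and 12.7 units of input. The bin 19001 to 20000 had the highest H3K9me3 over input on the arm, at a log2 of 4.32, and Rhino there was just under the threshold. H3K9me3 and Rhino enrichment thus peaked at different places on 2L.

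On X, the bins 6001 to 10000 held the highest values of all members, and they were also high in the input. Control Rhino signal was 1362, 1044, 430 and 286 units in these 4 bins, against 82.5, 83.9, 65.5 and 46.9 units of input, where the median input over the table was 8.71. Over input this was a log2 of 4.03 in the bin 6001 to 7000. Binding went on without a gap to 16000, and came back over 21001 to 24000, where the bins overlap exons and Rhino was 59.8, 69.2 and 27.6 units. The bins 14001 to 16000 had a mappability index under 0.1, and so did the single bound bins 2001 to 3000 and 57001 to 58000, whose values rest on few mappable positions.

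On 3L, the 8 bound bins lay 35 to 53 kb from the end, outside any published cluster and off exons. Control Rhino signal was 48.2, 69.9, 46.3 and 51.5 units in the bins 35001 to 39000, against 3.17, 3.92, 3.12 and 4.52 units of input. Farther in, the bound bins 42001 to 44000, 50001 to 51000 and 52001 to 53000 had 17.8 to 47.5 units. H3K9me3 was at the floor of 0.1 units in the bin 35001 to 36000, the only bound bin where the mark was not 2-fold over input.

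The outer limit of signal on 3L differed between libraries, control libraries included. The limit was read as the first of 3 successive well-mappable bins at 25% or more of the library's median over euchromatic arm bins, a rule chosen after the values were seen. It lay 20 kb from the end in both cutoff knockdown ChIP libraries (Rhino and Cutoff), 33 kb in deadlock knockdown Rhino and Deadlock ChIP, 42 kb in piwi knockdown Rhino and H3K9me3, and at 37, 39 and 46 kb in rhino knockdown Pol II, H3K9me3 and Rhino ChIP. In control ovaries it lay at 33 kb for Deadlock and Cutoff ChIP, 34 kb for Rhino, and 36 kb for H3K9me3 and Pol II, and in the input at 35 kb. Between 19 and 33 kb the cutoff knockdown Rhino library had a median of 2.65 units over 12 well-mappable bins, and control Rhino had 0.10 units in all 12. Between 36 and 42 kb, H3K9me3 in piwi knockdown was 0.10 to 0.33 units in the 5 well-mappable bins, against 9.14 to 22.3 units in the control. Only 0.0308% of euchromatic arm bins had a piwi knockdown H3K9me3 value of 0.33 units or less. The limit depends on the 25%: at 50% it lay at 42 kb in both cutoff knockdown libraries and in deadlock knockdown Deadlock ChIP, and at 43 kb in the input, and stayed at 42 kb in both piwi knockdown columns. Control RNA-seq differed there as well, with 1.35 units in replicate 1 and 0.01 units in replicate 2 in the bin 35001 to 36000. The input had no knockdown of its own, so less DNA in a library's flies and less of the protein or mark cannot be told apart at these positions.

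**Figure D2:**
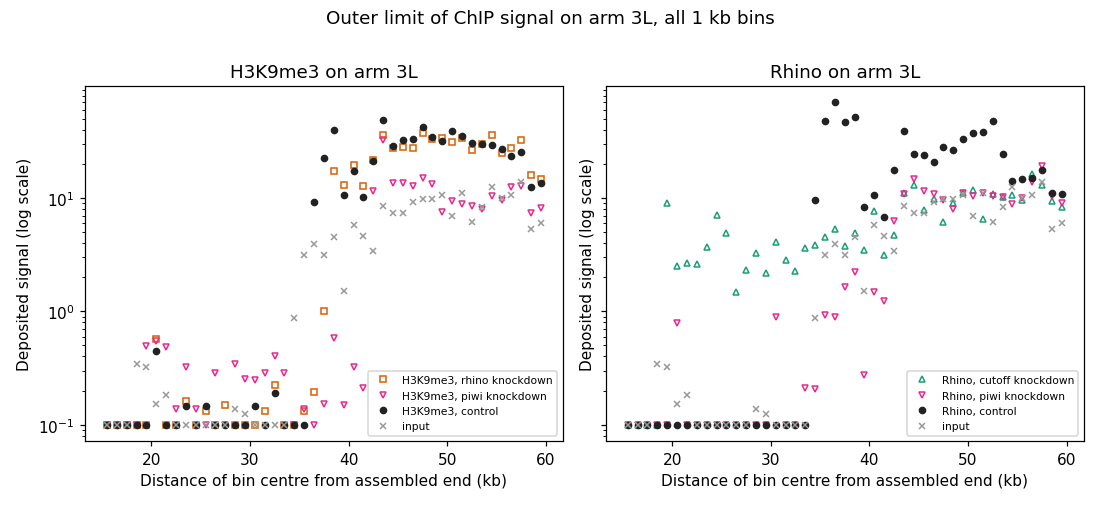
Deposited signal per 1 kb bin on 3L (log axis), 15 to 60 kb from the assembled end, for H3K9me3 (left) and Rhino (right) by knockdown, with the control and the input. Cutoff knockdown Rhino lies above 1 unit from 20 kb inward and control Rhino from 34 kb. Piwi knockdown H3K9me3 stays under 1 unit in every bin drawn less than 42 kb from the end. Points at 0.1 are bins without reads.

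Rhino occupancy of the bound bins was lower in nearly every bound bin in all 3 knockdowns of the complex, by the largest median on 3R, and piwi knockdown had its largest median on 3L. Of the 32 bound bins, 31 had 2-fold or more lower Rhino in rhino knockdown, 32 in deadlock knockdown, 29 in cutoff knockdown and 25 in piwi knockdown. Because these bins were picked for high control values, the counts are a description. On 3R the 5 bins had 2.10 to 10.7 units in rhino knockdown, 3.03 to 12.1 in deadlock knockdown, 7.99 to 26.7 in cutoff knockdown and 17.8 to 47.8 in piwi knockdown, against 127 to 348 in the control. The median log2 changes were -4.90, -4.99, -3.83 and -2.84 for rhino, deadlock, cutoff and piwi knockdown, so the piwi knockdown left more Rhino there than the others did. On X the medians over 15 bins were -2.24, -2.54, -2.56 and -1.36 in the same order. On 3L they were -3.07, -3.20, -2.60 and -3.06 over 8 bins, 4 of which lie where piwi knockdown had almost no signal.

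The 2L bins responded least to piwi knockdown. Rhino in the bin 5001 to 6000 was 6.31 units in rhino, 3.16 in deadlock, 9.23 in cutoff and 76.1 in piwi knockdown, against 48.5 in the control. In the bin 6001 to 7000 it was 0.90, 4.49, 6.03 and 31.2 units in the same order of knockdowns, against 41.1 in the control. Only the first of these bins was higher in piwi knockdown than in the control, and over the 4 bound bins of 2L the piwi knockdown median log2 change was -0.22. Rhino-bound bins by the same 4-fold rule numbered 1 in rhino, 1 in deadlock and 2 in cutoff knockdown, all of them on X with a mappability index under 0.1. In piwi knockdown 21 bins were bound, of which 9 were among the 32 control bins.

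**Figure D3:**
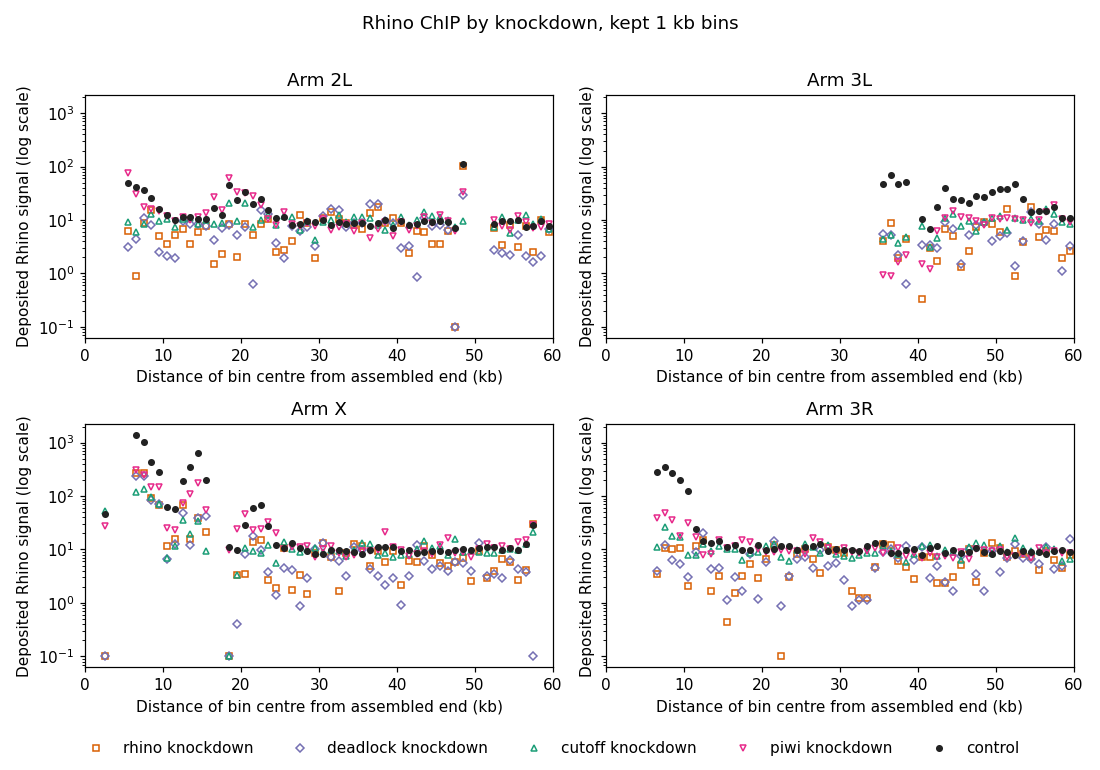
Deposited Rhino ChIP signal per kept 1 kb bin (log axis) in rhino, deadlock, cutoff and piwi knockdown and in the control, over the outer 60 kb of each arm. At the end of 3R all 4 knockdowns lie below the control in all 5 bound bins, and on 2L the piwi knockdown at 5 to 6 kb lies above it.

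Counts over all members have to be read against how often ordinary bins moved. In rhino knockdown Rhino was 2-fold or more lower in 150 of 326 bins (15.9% of all kept bins) and higher in 0 (7.81%). In deadlock knockdown 174 were lower (18.5%) and 4 higher (9.22%). In cutoff knockdown 46 were lower (4.41%) and 1 higher (0.677%), and in piwi knockdown 33 were lower (1.85%) and 8 higher (2.29%). The 2 larger counts moved with the input. Among bins with 25% to 50% of the median input, 90.0% of 30 members and 69.4% of 2525 euchromatic arm bins were lower in rhino knockdown. Among bins at or above the median input, 29.1% of 148 members and 3.82% of 66521 euchromatic bins were lower. The part of the input in the member counts was not tested. A pseudocount of 5 in place of 1 left 95 and 104 bins in rhino and deadlock knockdown. Without the 3L bins less than 42 kb from the end, the counts were 145, 169, 42 and 27 for rhino, deadlock, cutoff and piwi knockdown.

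Deadlock and Cutoff themselves were highest where Rhino was highest. In the X bins 6001 to 8000, Deadlock ChIP gave 153 and 168 units in deadlock knockdown, against 446 and 414 in the control. Cutoff ChIP gave 122 and 125 units there in cutoff knockdown, against 242 and 259 in the control. Both were lower in their own knockdown, but input in these bins was 82.5 and 83.9 units and the knockdown values stayed above it. On 3R, Deadlock in the bin 27896001 to 27897000 was 12.7 units in deadlock knockdown, against 48.1 in the control. Cutoff there was 9.27 units in cutoff knockdown, against 28.1 in the control. On 2L, the 3 bound bins of the cluster had 4.87 to 7.20 units of Deadlock in deadlock knockdown, against 3.94 to 14.1 in the control, so the ranges overlapped. Over all members 12 bins were 2-fold or more lower for Deadlock (1.27% of all kept bins) and 17 higher (2.6%). For Cutoff 15 were lower (3.14%) and 42 higher (6.12%).

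Over the bound bins in rhino knockdown the median log2 change was -0.38 for H3K9me3 and -2.84 for Rhino. These bins were picked for high control Rhino and not for H3K9me3, which enlarges the Rhino changes. The medians of the 2 assays, here and for 3R below, are therefore set side by side as a description only. In piwi knockdown the medians were -0.78 and -1.70, but on 2L H3K9me3 had the larger change, at -0.50, against -0.22 for Rhino. In control ovaries 72 of 326 bins (22.1%) had 2-fold or more H3K9me3 over input, against 14.4% of all kept bins. The median of euchromatic arm bins lay at -0.80 on this log2 scale, and with their medians set equal 159 bins were counted. In rhino knockdown 6 bins were 2-fold or more lower (1.51%) and 1 higher (3.75%). The 6 became 3 without the 3L bins less than 42 kb from the end and 15 with equal medians. The 4 outer bins of 3R had 32.1, 52.2, 40.5 and 56.7 units in rhino knockdown and 39.9, 65.9, 43.1 and 62.0 units in piwi knockdown, against 71.6, 104, 63.3 and 106 units in the control. All 4 were lower in both knockdowns, with median log2 changes of -0.93 and -0.70, beside -4.90 and -2.84 for Rhino over the 5 bound bins.

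On the distal X, H3K9me3 was lower in piwi knockdown than in rhino knockdown and the control, by averages without spread. In the bins 6001 to 8000 the mark was 309 and 451 units in rhino knockdown and 147 and 162 in piwi knockdown, against 358 and 382 in the control. In the bins 8001 to 10000 it was 202 and 190 units in rhino knockdown and 94.9 and 110 in piwi knockdown, against 226 and 194 in the control. Piwi knockdown was the lowest of the 3 columns in each of the 4 bins, and the difference between the knockdowns was not tested. On 2L rhino knockdown was the lowest over the inner stretch of H3K9me3. The bins 18001 to 20000 had 89.5 and 65.8 units in rhino knockdown and 139 and 107 in piwi knockdown, against 174 and 129 in the control.

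The largest set of bins with less H3K9me3 in piwi knockdown lay on 3L. Over all members 26 bins were 2-fold or more lower (1.05% of all kept bins) and 1 higher (1%). Of the 26, 20 were on 3L, and 5 of these lay less than 42 kb from the end, where piwi knockdown had almost no signal. Without those outer bins 21 were lower. Between 42 and 53 kb, H3K9me3 averaged 13.3 units in piwi knockdown, against 34.3 in the control, over 11 bins, and the median log2 change was -1.32 with a range of -1.96 to -0.57. In rhino knockdown the mark averaged 30.5 units over the same bins, with a median change of -0.17. Rhino over these 11 bins averaged 5.96 units in rhino knockdown, 5.30 in deadlock, 9.26 in cutoff and 10.4 in piwi knockdown, against 30.7 in the control. From 53 to 100 kb, H3K9me3 averaged 8.21 units in piwi knockdown, against 12.6 in the control.

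Small RNA at the ends differed from bin to bin in how far it was lower in the knockdowns. Of 125 kept bins with at least 10 control reads, 39 (31.2%) were 4-fold or more lower in all 3 knockdowns of the complex, against 33.4% of all 25032 kept bins with as many reads. A further 57 (45.6%) were less than 2-fold lower in all 3, against 51.4%, and 29 were in neither class. Both shares were near those of the table. The 39 bins kept a median of 3.15%, 2.49% and 2.67% of the control signal in rhino, deadlock and cutoff knockdown, and at most 20.6%, 23.8% and 21.2%. The 4-fold rule that picked these bins caps the share they can keep, so the shares are a description. The members held 0.638%, 0.863% and 0.628% of all small RNA reads placed in bins in rhino, deadlock and cutoff knockdown, against 1.59% in the control. X alone gave 71.7% of the members' control reads. Over all 326 bins, 48 were 4-fold or more lower in rhino knockdown (8.13% of all kept bins), 48 in deadlock knockdown (8.35%) and 44 in cutoff knockdown (8.26%), and 1 was higher in each (0.857%, 1.41% and 1.1%). The libraries differed in scale as well: reads in all bins made up 41.3%, 44.4% and 45.2% of the total that the values were scaled to in rhino, deadlock and cutoff knockdown, against 89.7% in the control. Summed scaled reads of euchromatic arm bins were 0.66, 0.73 and 0.74 of the control in the same knockdowns. Their mean signal, which is divided by mappability, was lower still, at 4.64, 5.04 and 5.08 units, against 10.8 in the control.

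Loss was deepest at 3R. The bin 27898001 to 27899000 gave 7.51, 4.97 and 2.41 units in rhino, deadlock and cutoff knockdown, against 2062 in the control. The next bin inward, 27897001 to 27898000, gave 4.28, 4.68 and 1.73 units, against 1627 in the control. Over the outer 4 bins, 21, 15 and 9 reads were left in the 3 knockdowns, against 5922 control reads, and each knockdown was far below the control in each bin. On 2L, the bin 5001 to 6000 gave 1.06, 0.89 and 1.78 units in rhino, deadlock and cutoff knockdown, against 309 in the control. On 3L, the bin 38001 to 39000 gave 6.48, 1.5 and 7.72 units, against 133 in the control. From 42 to 53 kb on 3L, inward of the outer limit of each ChIP library except rhino knockdown Rhino, rhino knockdown had 149 reads, deadlock 71 and cutoff 218, against 1164 control reads. These came to 9.21-fold (95% interval 7.76 to 11.0), 17.6-fold (13.9 to 22.8) and 8.08-fold (6.99 to 9.38) less after scaling to the recovered total of each library. The intervals cover counting error only.

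On X, adjacent bins of the same bound stretch responded differently. The bin 6001 to 7000 gave 259, 156 and 401 units in rhino, deadlock and cutoff knockdown, against 7116 in the control, and the bin 7001 to 8000 gave 274, 170 and 373 units, against 5526. The bin 8001 to 9000 gave 928 units in rhino, 2292 in deadlock and 787 in cutoff knockdown, against 1308 in the control. The bin 9001 to 10000 gave 345, 883 and 315 units, against 709 in the control. Small RNA in the inner pair was higher in deadlock knockdown than in the control, and lower in rhino and cutoff knockdown. Control Rhino was 430 and 286 units in that pair. Read counts behind these values were 395 to 1806 in the outer pair of the knockdowns and 1083 to 7019 in the inner pair. Beyond 10 kb the knockdowns were again far below the control, at 25.7, 28.1 and 24.2 units in 13001 to 14000, against 1093 in the control. In the exon bin 20001 to 21000, which was under the binding threshold, small RNA was 0.75, 0.10 and 0.77 units in rhino, deadlock and cutoff knockdown, against 148 in the control.

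Some exon bins had small RNA in the knockdowns at levels near the control, and others did not. Of the 60 exon bins with at least 10 control reads, 40 (66.7%) were less than 2-fold lower in all 3 knockdowns and 11 (18.3%) were 4-fold or more lower in all 3. Over all kept bins with as many reads, exon or not, the shares were 51.4% and 33.4%. The shares over all exon bins were not computed, so these counts show nothing particular to the exon bins of the ends. The 11 include X 20001 to 24000. On 2L, the bin 9001 to 10000 gave 115, 118 and 152 units in rhino, deadlock and cutoff knockdown, against 160 in the control, and the bin 10001 to 11000 gave 188, 186 and 228 units, against 237. Piwi-bound small RNA of the piwi knockdown was 73.9 and 154 units in these bins, and 0.21 units in the bin 5001 to 6000. Farther in, the exon bin 75001 to 76000 gave 173, 159 and 176 units, against 173 in the control, with 146 units bound to Piwi. Of all member reads in the Piwi-bound library 67.8% lay on 2L and 3.34% on X. The highest small RNA of 2L was in the bin 48001 to 49000, which overlaps no exon and has a mappability index of 0.026. It gave 421, 222 and 382 units in rhino, deadlock and cutoff knockdown, against 560 in the control. On 3R, the bins 27879001 to 27883000 gave 33.7 to 66.7 units over the 3 knockdowns, against 26.8 to 44.7 in the control. Each knockdown was above the control in each of the 4 bins, all of which overlap exons except 27881001 to 27882000. Of the 125 bins with at least 10 control reads, 23 (18.4%) were higher in all 3 knockdowns, 14 of them on 3R, against 29.9% of all kept bins with as many reads.

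**Figure D4:**
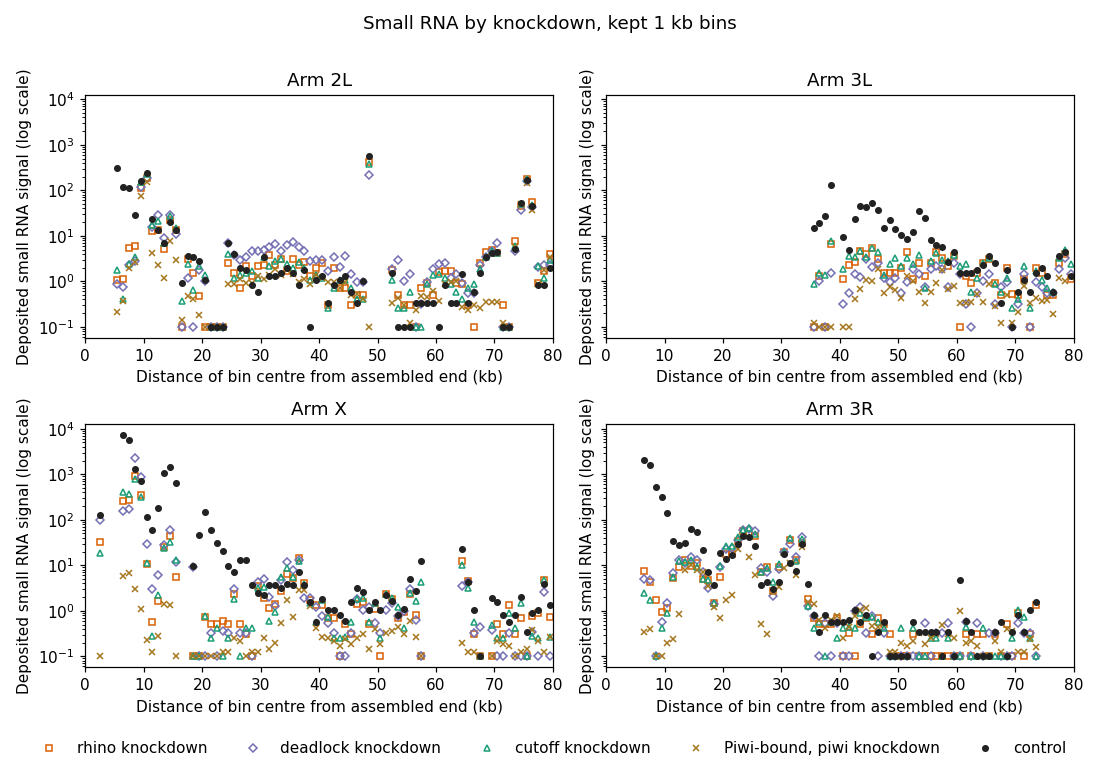
Deposited small RNA signal per kept 1 kb bin (log axis) in rhino, deadlock and cutoff knockdown, in the Piwi-bound library of piwi knockdown and in the control, over the outer 80 kb of each arm. The outer bins of 2L, 3L and 3R show a gap between the control and the 3 knockdowns, and at 9 to 11 kb and 74 to 77 kb on 2L all 5 libraries carry small RNA.

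Pol II and nascent RNA in rhino knockdown were below the control in the outer 10 kb of 3R and above it in the outer 10 kb of X. Over the outer 4 bins of 3R, GRO-seq had 4 reads in rhino knockdown, against 37 in the control, a ratio of 0.115 (95% interval 0.0297 to 0.319). Pol II over the same bins had 105 reads, against 267, a ratio of 0.492 (0.389 to 0.619). Both intervals lie below 1. Over the 5 kept bins in the outer 10 kb of X, GRO-seq had 542 reads in rhino knockdown, against 159 in the control, a ratio of 3.62 (3.03 to 4.35). Pol II there had 2772 reads, against 2244, a ratio of 1.55 (1.46 to 1.63). Farther in, over X 20001 to 24000, which holds 3 bound bins, GRO-seq had 19 reads in rhino knockdown, against 93 in the control. Over the 15 bound bins of X, GRO-seq was 2-fold or more higher in 7 and lower in 1. In the bin X 6001 to 7000 GRO-seq was 25.2 units in rhino knockdown, against 4.08 in the control, and Pol II 76.3 units, against 40.5.

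The other ends moved less, and on 3L the direction for GRO-seq differed by stretch. In the outer 10 kb of 2L, the rhino knockdown over control ratio was 0.92 for GRO-seq (0.81 to 1.05) and 1.03 for Pol II (0.94 to 1.13), and both intervals include 1. Between 36 and 42 kb on 3L, where the outer limit of signal differed between libraries, GRO-seq had 63 reads in rhino knockdown, against 135 in the control. The ratio over these 5 well-mappable bins was 0.495 (0.361 to 0.673), and that of Pol II 0.942 (0.813 to 1.09). Between 42 and 53 kb the GRO-seq ratio was 1.53 (1.33 to 1.75) and the Pol II ratio 1.16 (1.08 to 1.25). Between 53 and 100 kb on 3L, GRO-seq had 2527 reads in rhino knockdown, against 1533 in the control, a ratio of 1.75 (1.64 to 1.87), and Pol II a ratio of 1.3 (1.26 to 1.35). That stretch held no Rhino-bound bin. The exon bin X 72001 to 73000 had the highest Pol II of X, at 118 units in rhino knockdown, against 123 in the control, and its Rhino signal was 110 units in piwi knockdown, against 22.8 in the control. Over all members, GRO-seq was 2-fold or more higher in 40 bins (4.37% of all kept bins), 18 of them on 3L, and lower in 17 (3.88%). Pol II was 2-fold or more higher in 6 bins (1.29%) and lower in 4 (0.905%). With 1 library a group, the spread between ovaries is unknown for these values.

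In RNA-seq no member passed the test across all bins, which is no evidence that they did not change: on simulated data the same fit found no change of that kind. limma, on log2(value + 1) of the 3 complex knockdowns against the 2 controls with Benjamini-Hochberg adjustment over 123742 bins, called 0 of 326 members, against 0.00242% of all kept bins lower and 0.00808% higher. At an unadjusted p under 0.05 there were 57 members (17.5%), against 9.85% of all kept bins. Restricted to bins with a mean of at least 1 on that scale, a choice made after the data were seen, limma called 0 of 87 members, where 0.117% of 30787 bins were called lower and 0.49% higher. At an unadjusted p under 0.05 there were 28 of the 87 members (32.2%), against 10.5% of those bins. Many members are adjacent bins measured in the same libraries, so they are not independent, and the unadjusted shares are a description only. With 3 libraries against 2 no exact permutation test can go below p = 0.1, and the 3 knockdowns are of different genes, so their spread is not that of replicates. The count depended on the controls: without control replicate 1 the fit called 49 members, and without control replicate 2 it called 3. Over all members, all 3 knockdowns lay below both controls in 103 bins (20.1% of all kept bins) and above both in 22 (7.96%).

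In the outer bins of 3R the RNA-seq groups were apart, although none passed the test. In the bin 27895001 to 27896000 RNA-seq gave 0.01 units, the floor, in each of the rhino, deadlock and cutoff knockdown, against 4.67 and 3.87 units in the 2 controls. All 3 knockdowns were without a read there, and limma gave a log2 change of -2.38 (SE 0.13, adjusted p = 0.067). In the bin 27896001 to 27897000 the knockdowns gave 0.07, 0.01 and 0.06 units, against 1.66 and 3.51 in the controls, with a log2 change of -1.73 (SE 0.25, limma adjusted p = 0.20). Groups did not overlap in either bin, nor in the other 3 bound bins of 3R, and all 3 knockdowns lay below both controls in all 5. Of the bound bins elsewhere, 1 of 4 on 2L, 5 of 8 on 3L and 3 of 15 on X lay below, against 20.1% of all kept bins. Above both controls lay 5 of the 15 on X, against 7.96% of all kept bins. The direction was opposite to that on 3R in the X bin 8001 to 9000. It had 6.80, 9.95 and 3.6 units in rhino, deadlock and cutoff knockdown, against 1.3 and 0.90 in the controls. The groups did not overlap, and limma gave a log2 change of 1.81 (SE 0.40, adjusted p = 0.32).

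Exon bins near the bound bins did not pass the test either. On 2L, the bin 18001 to 19000, with the highest Pol II of the arm, gave 40.3, 37.2 and 49.5 units in rhino, deadlock and cutoff knockdown, against 70.3 and 67.0 in the controls (log2 change -0.69, SE 0.16, limma adjusted p = 0.34). Small RNA and RNA both came from the 2L bins 10001 to 16000, where all 6 bins overlap exons. In the bin 11001 to 12000 RNA-seq gave 74.0, 71.0 and 85.3 units, against 111 and 101 in the controls. On 3R the bin 27893001 to 27894000 gave 20.4, 18.1 and 21.6 units in rhino, deadlock and cutoff knockdown, against 26.9 and 107 units in the controls, which were far apart. The bin X 18001 to 19000 had the highest RNA of all members, at 2170, 10100 and 12050 units in the knockdowns, against 897 and 8349 in the controls, and its mappability index was 0.02. Its groups overlapped, and 18 members had controls over 2-fold apart.

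**Figure D5:**
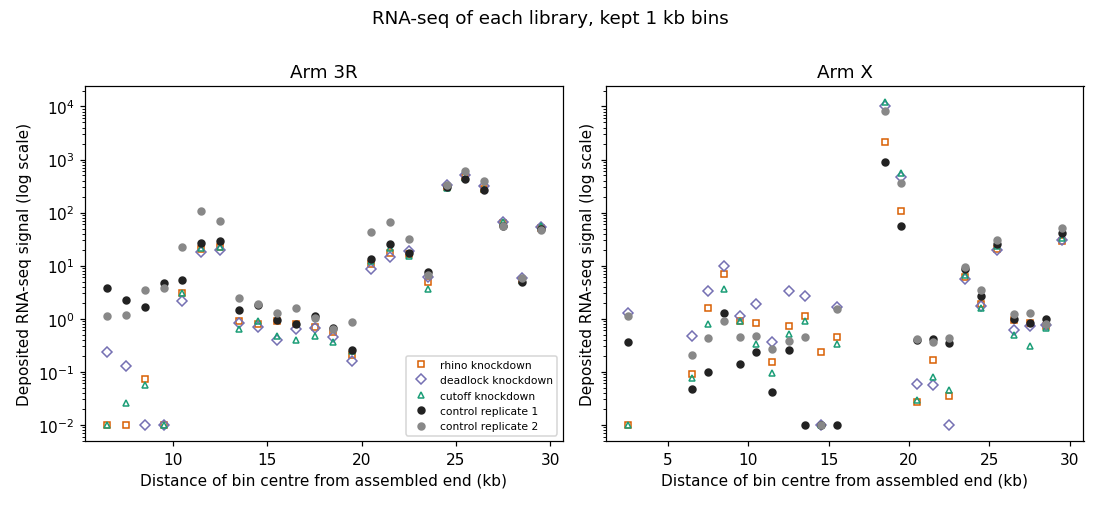
Deposited RNA-seq signal per kept 1 kb bin (log axis) of the 3 knockdown and 2 control libraries, over the outer 30 kb of 3R and X. On 3R the knockdowns lie at 0.01 to 0.24 units in the 4 outermost bins and the controls above 1. On X the knockdowns lie above both controls at 8 to 9 kb.

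The genes nearest each end were taken by order from RefSeq (Release 6 plus ISO1 MT), an assembly other than that of the bins, so no bin was tied to a gene. The outermost entries of 2L are the pseudogene CR11023, l(2)gl, a tumour suppressor of the cell polarity machinery, and Ir21a, an ionotropic receptor. Those of 3L are mthl8, a receptor of the methuselah-like family, CG43149 and Lsp1gamma, a larval serum protein gene. Those of X are SteXh:CG42398, a Stellate-related gene, lncRNA:CR40469 and CG17636, followed by RhoGAP1A. Those of 3R are Map205, which codes for a microtubule-associated protein, mod, a nucleic acid-binding protein, and krz, the non-visual arrestin, followed by Pos, CR46418 and heph, a polypyrimidine tract-binding protein.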

How the data were processed

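All values came from 1 deposited table of 1 kb bins on dm3. Per the submitters' processing notes, cutadapt 1.0, Bowtie 0.12.7, SAMtools 0.1.16, bedtools 2.16.1 and GSNAP were used; their roles and settings were not given in the sources used here. The authors deposited a scaled signal for each bin without naming its unit. In the 21 single-library columns the values were whole reads (tolerance 0.1) scaled to a total for each library and divided by the mappability index, plus a constant. Reads and scaling totals were recovered from this. A further 6 columns are the authors' averages of 2 libraries and have no spread. A column of sequenced DNA without a labelled sample (1) and 3 libraries of capped RNA and H3K4me2 were not used here.

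Bins with input of at least 25% of the median were kept. Folds are differences of log2(value + 1), called at 2-fold for ChIP and GRO-seq and 4-fold for Rhino over input and small RNA. Read ratios carry exact 95% binomial (Clopper-Pearson) intervals, which cover counting error only. RNA-seq was tested with limma 3.58.1 (R 4.3.3) on all kept bins with a mean-variance trend and Benjamini-Hochberg adjustment. Checked on simulated data with 4-fold changes, this fit found none of the changed bins over all kept bins, and nearly all of them, with false calls, over bins with a higher mean. The simulation gave every bin the same spread between libraries, beyond counting error. Among the members 18 had controls over 2-fold apart, so the recovery need not hold for the real bins. Labels do not say whether the control libraries came from separate flies.

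Bins to name were those within 10 kb of an end and, per arm, the highest in Rhino over input, H3K9me3 over input, small RNA and Pol II; other bins were named after their values were seen. The members and lists were chosen with earlier results of these data known. Alternatives were pseudocounts of 0.1 and 5, no input filter, a mappability minimum of 0.5, equal euchromatic medians, each RNA-seq library left out, and 2 added after the data were seen, a filter on mean RNA-seq signal and removal of the outer 3L bins. The knocked-down genes' own bins were not looked up here, since no dm3 annotation was used.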

Additional observations from a re-analysis of the deposited data

How the results depend on the processing

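In the main direction of each comparison (higher over input, lower in a knockdown, either way for RNA-seq), 78 recomputed counts stayed within 1.5 times the reported one and 21 did not. In the opposite direction 29 did not. There, bins with higher GRO-seq numbered 11 with a pseudocount of 5 and 68 with 0.1, in place of 40. Bins with higher Deadlock numbered 1 and 33, in place of 17, and those with higher Cutoff 8 and 53, in place of 42. With equal euchromatic medians, 3 small medians over all members changed sign: Rhino in piwi knockdown (0.0051 in place of -0.073 on the log2 scale), GRO-seq in rhino knockdown (-0.0069 in place of 0.024) and small RNA in cutoff knockdown (0.018 in place of -0.12). A pseudocount of 5 gave 95 bins with lower Rhino in rhino knockdown, 104 in deadlock knockdown, 7 with lower Deadlock, 7 with lower Cutoff, 1 with lower Pol II, 1 with lower GRO-seq and 31 with lower small RNA in rhino knockdown. A pseudocount of 0.1 gave 42 bins with lower GRO-seq and 74 with lower small RNA in deadlock knockdown. A mappability index of at least 0.5 gave 20 Rhino-bound bins, 5 with lower Deadlock, 8 with lower Cutoff, 3 with lower H3K9me3 in rhino knockdown and 1 with lower Pol II. Equal euchromatic medians gave 159 bins with H3K9me3 over input, 15 with lower H3K9me3 in rhino knockdown and 3 called in RNA-seq. Leaving out the 3L bins less than 42 kb from the end gave 3 with lower H3K9me3 in rhino knockdown. It also gave 28 Rhino-bound bins, 67 with H3K9me3 over input, 9 with lower Deadlock and 13 with lower Cutoff. Small RNA was then lower in 43, 43 and 40 bins in rhino, deadlock and cutoff knockdown. The small RNA classes of bins with at least 10 control reads were not recounted without the outer 3L bins. Without the input filter 1 bin was called in RNA-seq, and leaving out each RNA-seq library in turn gave 0 to 49 calls: 49 without control replicate 1, 3 without control replicate 2 and 0 without any of the 3 knockdowns. The causes of these shifts were not tested. Equal medians were not run for small RNA in rhino and deadlock knockdown, where the euchromatic median is at the floor.

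No paired analysis was possible because the replicated ChIP columns are averages and the RNA-seq groups share fewer than 2 replicate numbers. Bins of low mappability, the lack of an input for any knockdown and single libraries limit every value, and a bin at the floor shows only that no read was placed there at that depth.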
